A study of Mus musculus with 6 samples.

Results

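Asf1a is a histone chaperone gene, and it is described here with 6 further histone chaperone genes, Asf1b, Chaf1a, Chaf1b, Nasp, Hira and Daxx, in donor hematopoietic cells taken from recipients with and without ICAM-1. All 7 were found by symbol among the 23228 genes of the deposited table of expression values (FPKM, fragments per length of transcript and per size of library), and all 7 were tested. LSK cells, a bone marrow fraction without lineage markers and with Sca-1 and c-Kit, in which stem cells and multipotent progenitors reside, came from WT donors carrying Ly5.1+ and had been transplanted into Ly5.2+ recipients, then sorted again 8 weeks later. The 3 WT libraries came from WT recipients and the 3 ICAM-1-/- libraries from recipients lacking the adhesion molecule ICAM-1, all labelled C57BL/6. The deletion was thus in the host, and the sequenced donor cells were WT in both groups. The design gives 3 recipients per group, but whether a library holds cells of 1 animal is not given, so p-values measure the spread between these libraries. Where 3 values are listed for a group, they are in the order of replicates 1, 2 and 3.

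Asf1a was selected on its FPKM values, which were lower in the ICAM-1-/- than in the WT libraries, and the other members were added by function with these values known. The differences between recipients are therefore given as a description, and no test of them is used as support.

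Histone chaperones escort newly made or recycled histones and hand them to DNA. ASF1 proteins, encoded by Asf1a and Asf1b, hold an H3-H4 dimer and pass it on to a depositing complex. CAF-1, with its subunits Chaf1a and Chaf1b, works behind the replication fork in S phase, while HIRA and DAXX place the variant histone H3.3 outside replication. NASP keeps the soluble store of H3 and H4. In human cells ASF1A is tied mainly to HIRA and ASF1B to proliferation, and in mouse both Chaf1b and Hira are needed for normal blood formation.

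Asf1a exceeded Asf1b in each WT library, and Asf1b exceeded Asf1a in each ICAM-1-/- library. Asf1b and Chaf1b had similar profiles over the libraries. That likeness includes a 0 for both in WT replicate 1, where 39.6% of tested genes were listed at 0. The promoters of the ASF1 genes and of Chaf1b are shown for these reasons. Each is the RefSeq window on GRCm38.p6 from 250 bases before to 50 after the annotated start, written 5′ to 3′ along the gene. Capitals mark matches on either strand to 3 motifs of cell cycle promoters: the E2F core GCGGGAA, the CCAAT box CCAAT and the cell cycle homology region TTTGAA. No matches overlapped one another. The windows are chr10:53596711-53597010 (plus strand) for Asf1a, chr8:83955444-83955743 (plus strand) for Asf1b and chr16:93883651-93883950 (plus strand) for Chaf1b.
Asf1a: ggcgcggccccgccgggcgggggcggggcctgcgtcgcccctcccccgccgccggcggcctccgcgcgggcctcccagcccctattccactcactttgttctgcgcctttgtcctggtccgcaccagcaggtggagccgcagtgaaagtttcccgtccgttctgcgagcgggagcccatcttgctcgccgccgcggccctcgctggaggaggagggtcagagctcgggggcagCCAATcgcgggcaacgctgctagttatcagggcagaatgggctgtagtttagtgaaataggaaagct
Asf1b: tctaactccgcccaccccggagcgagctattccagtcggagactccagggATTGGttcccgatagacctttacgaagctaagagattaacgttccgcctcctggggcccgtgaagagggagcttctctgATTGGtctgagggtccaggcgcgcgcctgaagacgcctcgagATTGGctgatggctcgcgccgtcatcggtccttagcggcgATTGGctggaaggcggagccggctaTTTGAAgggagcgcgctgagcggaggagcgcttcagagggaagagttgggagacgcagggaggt
Chaf1b: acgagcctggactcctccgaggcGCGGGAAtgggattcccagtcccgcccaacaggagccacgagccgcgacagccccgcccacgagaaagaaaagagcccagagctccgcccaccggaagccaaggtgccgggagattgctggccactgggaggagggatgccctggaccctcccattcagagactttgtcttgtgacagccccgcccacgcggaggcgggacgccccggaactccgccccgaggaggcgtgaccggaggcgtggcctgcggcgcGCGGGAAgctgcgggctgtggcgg

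The window of Asf1b held 4 CCAAT boxes, at -200, -121, -79 and -39 relative to the start, and TTTGAA at -14. At least 4 CCAAT boxes were present in 1.06% of all 32851 promoter windows and TTTGAA in 17.9%. The window of Asf1a held 1 CCAAT box, at -17, and neither of the other motifs, where 37.4% of all windows held a CCAAT box. Chaf1b had the E2F core at -227 and 27, and no CCAAT box. Chaf1a, the other CAF-1 gene, had the E2F core once, at -47, and 1 CCAAT box, at -81. The E2F core was present in 4.6% of all windows. The window of Nasp held 2 CCAAT boxes and 1 TTTGAA, and that of Hira held none of the motifs. Of the windows of Daxx, which has several annotated starts, 1 held a CCAAT box. These matches describe letters in a window and were not tested for use. G and C made up 69.0% of the Asf1a window and 61.3% of the Asf1b window, but 48.3% of the Nasp window, against a median of 52.7% over all windows.

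The libraries were uneven, which bears on every value below. Zeros made up 39.6% of the 10477 tested genes for WT replicate 1, 10.7% and 10.2% for replicates 1 and 2 from ICAM-1-/- recipients, and 0.735% to 1.82% for the other 3 libraries. No count or depth accompanies these values, so the counting error is unknown and a 0 is reported only as listed at 0. The LSK label was checked on 9 marker genes. Kit ranged from 6.88 to 44.7 FPKM and Flt3 from 28.1 to 69.8 FPKM. Ly6a, which encodes Sca-1, was listed at 0 in WT replicate 1 and ranged from 12.4 to 91.8 FPKM elsewhere. Cd34 had 0.0203 FPKM in WT replicate 1 and between 58.6 and 144 FPKM elsewhere. Slamf1 was too low to be tested. It did not exceed 0.341 FPKM for WT recipients and had 3.71, 0.721 and 1.07 FPKM for ICAM-1-/- recipients. Cd48, Ptprc, Gata2 and Meis1 had at least 2.07 FPKM in every library. Among 13 markers of other cell types, the macrophage gene C1qa had 178 and 151 FPKM in replicate 1 of the WT and ICAM-1-/- groups, and between 1.78 and 16.8 FPKM elsewhere. Adgre1, also a macrophage gene, had 68.0 and 22.8 FPKM in those libraries and between 2.38 and 8.00 FPKM elsewhere. Lyz2, a macrophage and monocyte gene, did not follow them. It had 121, 227 and 107 FPKM for WT recipients and 97.4, 141 and 191 FPKM for ICAM-1-/- recipients. The T cell gene Cd3e did not exceed 0.593 FPKM. The summed level of the 13 markers was 292 to 411 FPKM in WT and 183 to 320 FPKM in ICAM-1-/- libraries.

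The level of Asf1a was 44.9, 20.0 and 29.9 FPKM for WT recipients. For ICAM-1-/- recipients it was 5.22, 7.40 and 13.1 FPKM. Every ICAM-1-/- library lay below every WT library, so the groups did not overlap. The means were 31.6 ± 12.5 and 8.57 ± 4.06 FPKM (SD, n = 3), a ratio of 3.69 between WT and ICAM-1-/-. The log2(FPKM + 1) difference, ICAM-1-/- minus WT, was -1.78 ± 0.75 (SE). This scale compresses differences between low values. In bulk samples, fewer cells that carry a transcript and less of it per cell cannot be told apart.

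The same-numbered libraries differed by -2.88, -1.32 and -1.13 on the log2(FPKM + 1) scale for replicates 1, 2 and 3. The sign was thus shared by all pairs, and the replicate 1 pair had the widest gap. WT replicate 1 and ICAM-1-/- replicate 1, the libraries with the most C1qa and Adgre1 but not the most Lyz2, held the highest and the lowest Asf1a value of the 6. Within replicates 2 and 3 the difference was -1.23. The part that other cell types have in the Asf1a values was not tested.

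**Figure D1:**
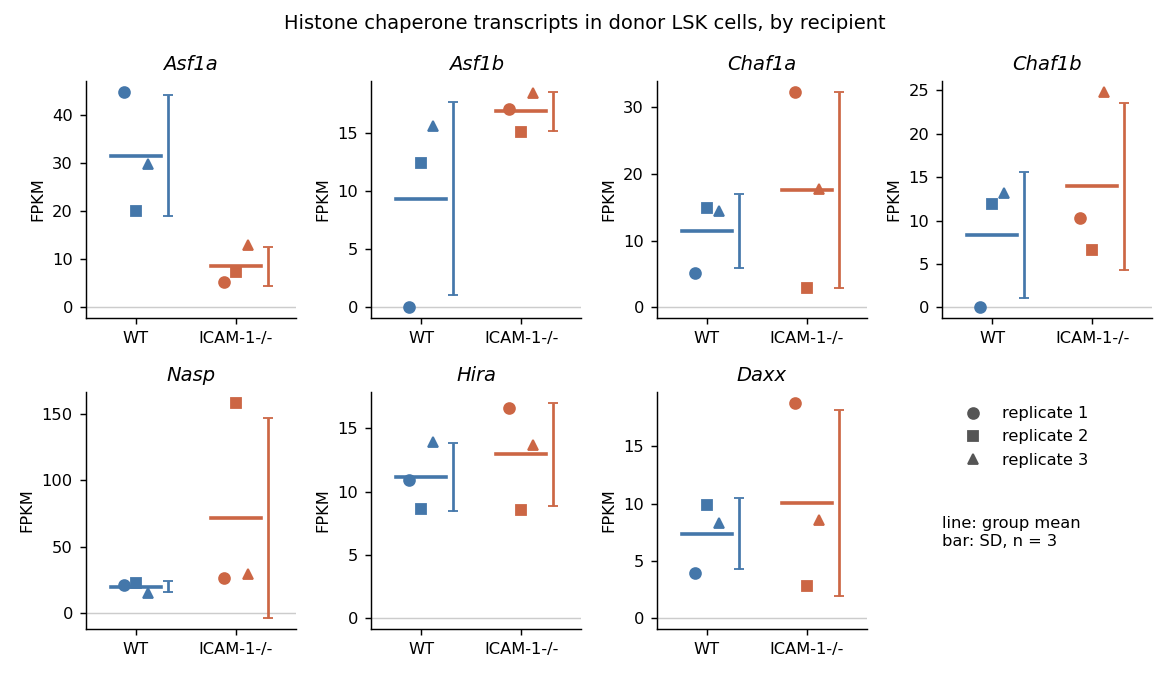
FPKM of each chaperone gene in the 6 libraries, with WT recipients in blue and ICAM-1-/- recipients in orange, marker shape giving the replicate number, lines the group mean and bars the SD (n = 3). Asf1a has no overlap between groups, Asf1b and Chaf1b are at 0 in WT replicate 1, and Nasp reaches 158 FPKM in ICAM-1-/- replicate 2.

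Rank within a library does not depend on scaling between libraries. It does depend on the share of tested genes listed at 0, which ranged from 0.735% to 39.6%, the latter in WT replicate 1. Among the tested genes of each library the percentile of Asf1a was 92.4, 78.8 and 86.5 for WT recipients and 37.1, 70.6 and 59.2 for ICAM-1-/- recipients. This restates the values that chose Asf1a, and 3.44% of tested genes likewise had all ICAM-1-/- percentiles below all WT ones. It was the highest or second highest of the 7 chaperones in each WT library and ranked from 4 to 7 in the ICAM-1-/- libraries. After median-of-ratios scaling, which raised the values of ICAM-1-/- replicate 2 most, Asf1a had values of 34.4, 17.8 and 30.1 FPKM for WT recipients and of 3.82, 17.5 and 9.19 FPKM for ICAM-1-/- recipients. ICAM-1-/- replicate 2 then lay just under WT replicate 2, so the gap between groups narrowed to 17.5 against 17.8 FPKM. The log2 difference after scaling was -1.50, where the median of all genes moved from 0.08 to 0.25.

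**Figure D2:**
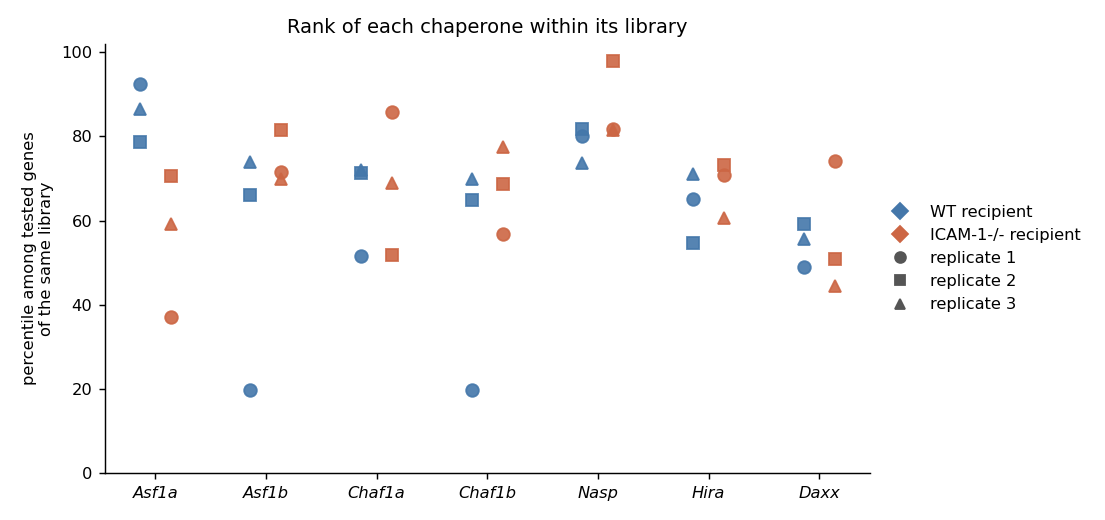
Percentile of each chaperone gene among the tested genes of the same library, with WT recipients in blue, ICAM-1-/- recipients in orange and marker shape for the replicate; genes tied at 0 share the mean percentile of the tie. Asf1a lies between 78.8 and 92.4 in WT and between 37.1 and 70.6 in ICAM-1-/- libraries.

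Exons of Asf1a share sequence with a gene on the opposite strand. In GENCODE M21, 48.0% of the 3638 exonic bases of Asf1a also lie in exons of Mcm9, a replication and repair helicase gene, and whether the authors counted by strand is not given in the sources used here. Reads from those bases could come from either gene. Mcm9 had 0, 1.95 and 2.63 FPKM for WT recipients and 2.85, 0.919 and 4.01 FPKM for ICAM-1-/- recipients, below Asf1a in every library. The Mcm9 groups overlapped, with a log2 difference of 0.60 ± 0.89 (SE) over all libraries and -0.08 within replicates 2 and 3. The part that shared bases have in the Asf1a values was not tested.

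Asf1b, the paralog of Asf1a, was listed at 0 in WT replicate 1 and had 12.5 and 15.7 FPKM in the other WT libraries. For ICAM-1-/- recipients it had 17.1, 15.1 and 18.4 FPKM. The ICAM-1-/- libraries were close together, and ICAM-1-/- replicate 2 lay below WT replicate 3, so the groups overlapped. The log2 difference was 1.55 ± 1.09 (SE) over 6 libraries and 0.24 within replicates 2 and 3, and it was 0.25 without WT replicate 1. The size of the Asf1b difference thus rested on 1 library, in which 39.6% of tested genes were also listed at 0.

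The balance of the ASF1 paralogs can be read within each library. Asf1a made up 100%, 61.6% and 65.6% of the summed Asf1a and Asf1b FPKM for WT recipients, and 23.4%, 32.9% and 41.5% for ICAM-1-/- recipients. Asf1a was thus the more abundant paralog in each WT library and Asf1b in each ICAM-1-/- library. The summed level was 44.9, 32.5 and 45.5 FPKM for WT recipients and 22.3, 22.5 and 31.5 FPKM for ICAM-1-/- recipients. This sum, too, was lower in every ICAM-1-/- library, by a narrow margin between ICAM-1-/- replicate 3 and WT replicate 2. After median-of-ratios scaling the groups overlapped: the sum was 34.4, 28.9 and 45.8 FPKM for WT recipients and 16.3, 53.2 and 22.1 FPKM for ICAM-1-/- recipients, so ICAM-1-/- replicate 2 was then the highest of all. Since Asf1a was chosen for its difference, its share carries that choice and was not tested.

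**Figure D3:**
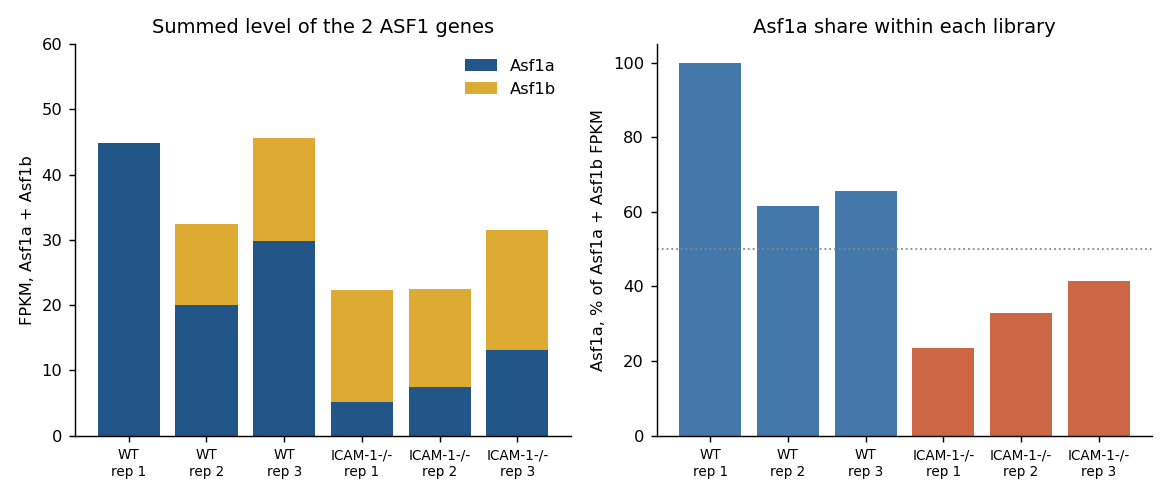
Left, stacked FPKM of Asf1a (dark blue) and Asf1b (yellow) in each library; right, Asf1a as a percent of that sum, with a dotted line at equal levels. Asf1a exceeds Asf1b in the 3 WT libraries and lies between 23.4% and 41.5% in the ICAM-1-/- libraries.

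Among the depositing complexes, the CAF-1 subunits did not part the groups. Chaf1a, the large subunit that binds the replication clamp, had 5.13, 14.9 and 14.5 FPKM for WT recipients and 32.2, 2.91 and 17.8 FPKM for ICAM-1-/- recipients. The ICAM-1-/- group held both the highest and the lowest value. The log2 difference was 0.23 ± 0.95 (SE), and its sign turned within replicates 2 and 3 (-0.87), when WT replicate 1 was left out (-0.22), and on leaving out ICAM-1-/- replicate 1 (-0.42) or 3 (-0.01). Of the exonic bases of Chaf1a, 52.5% also lie in exons of Ubxn6 on the opposite strand, which ranged from 2.74 to 38.5 FPKM. Ubxn6 was highest in ICAM-1-/- replicate 2, where Chaf1a was lowest.

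Chaf1b, the CAF-1 subunit that contacts ASF1, was listed at 0 in WT replicate 1 and had 11.9 and 13.2 FPKM in the other WT libraries. For ICAM-1-/- recipients it had 10.3, 6.67 and 24.8 FPKM, on both sides of the WT values. The log2 difference of 1.21 ± 1.12 (SE) was 0.06 within replicates 2 and 3 and -0.05 without WT replicate 1. Rbbp4, which encodes the remaining CAF-1 subunit, shared with other chromatin complexes, ranged from 61.1 to 72.7 FPKM in WT and from 28.1 to 90.9 FPKM in ICAM-1-/- libraries. It was above both other CAF-1 genes in every library.

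Of the genes for H3.3 deposition, Hira varied least. Its level was 10.9, 8.63 and 13.9 FPKM for WT recipients and 16.6, 8.54 and 13.7 FPKM for ICAM-1-/- recipients. The groups overlapped, and replicates 2 and 3 were nearly equal between recipients. Its SD over the 6 libraries was 0.36 on the log2(FPKM + 1) scale, a smaller spread than 98% of tested genes had (2.0% had a smaller one, and the median gene had 1.06). The log2 difference was 0.17 ± 0.75 (SE) and -0.02 within replicates 2 and 3. In GENCODE M21, 44.7% of its exonic bases lie in exons of Gm28539 on the same strand, a gene not analysed here.

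Daxx, which deposits H3.3 with the remodeller ATRX, had 3.93, 9.90 and 8.32 FPKM for WT recipients and 18.8, 2.77 and 8.55 FPKM for ICAM-1-/- recipients. As for Chaf1a, the ICAM-1-/- group held both extremes, high in replicate 1 and low in replicate 2. The log2 difference was 0.17 ± 0.91 (SE), -0.75 within replicates 2 and 3, and -0.17 and -0.40 when replicate 1 of the WT or of the ICAM-1-/- group was left out. The level of Hira exceeded that of Daxx in 4 of 6 libraries.

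Nasp, the H3-H4 storage chaperone, had 21.3, 23.1 and 15.4 FPKM for WT recipients and 26.6, 158 and 29.7 FPKM for ICAM-1-/- recipients. The groups did not overlap, and ICAM-1-/- replicate 2 lay far above the other 5 libraries. In that library Nasp made up 78.5% of the summed FPKM of the 7 genes, against 13.9% to 24.7% elsewhere. The log2 difference was 1.31 ± 0.83 (SE), and 0.50 without ICAM-1-/- replicate 2. After median-of-ratios scaling the groups overlapped, with 19.5 FPKM in ICAM-1-/- replicate 1 against 20.5 FPKM in WT replicate 2.

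None of the 7 members passed an adjusted p of 0.05 in limma between recipients, where 0.00% of 10477 tested genes did, and the rule that chose the members used this contrast. At an unadjusted p under 0.05 limma listed 54 genes (0.515%), Asf1a among them. When limma also fitted a replicate block, it called 13 genes (0.124%), none of them a member. Groups that did not overlap were counted for 2 of 7 members, Asf1a in the lower and Nasp in the higher direction, against 0.849% of tested genes lower and 3.23% higher. After scaling, those shares were 2.52% and 4.83%. In all 3 same-numbered pairs Asf1a was lower, as were 4.14% of tested genes, and Asf1b and Nasp were higher, as were 7.68%. The log2 difference was above 0 for 6 of 7 members over all libraries (median 0.23, against 0.08 for all tested genes) and for 3 of 7 within replicates 2 and 3 (median -0.02, against -0.32).

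**Figure D4:**
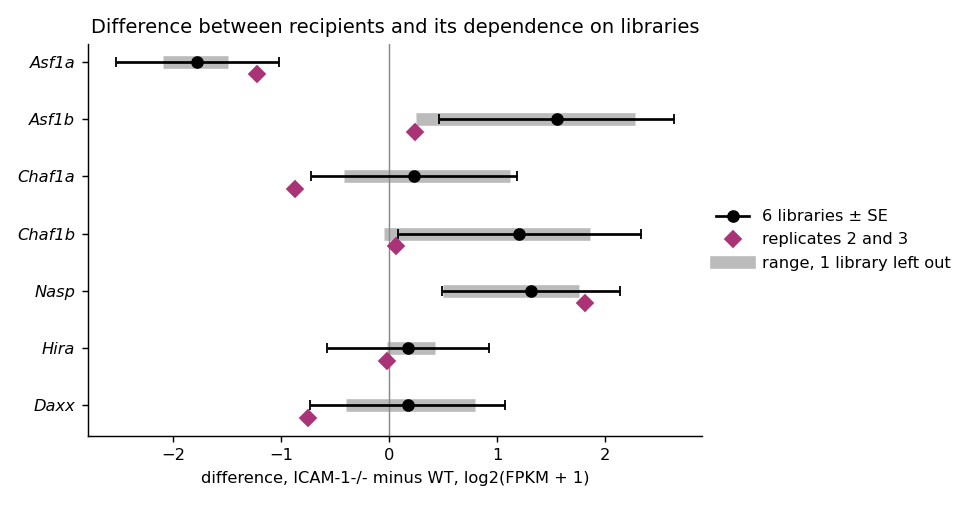
Log2(FPKM + 1) difference for each chaperone gene, ICAM-1-/- minus WT: black points with SE for 6 libraries, diamonds for replicates 2 and 3, and grey bars for the range when 1 library is left out. Asf1a stays below 0 and Asf1b and Nasp above 0 throughout, while Chaf1a, Chaf1b, Hira and Daxx reach both sides.

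By mean level over the 6 libraries on the log2(FPKM + 1) scale, Nasp came first (5.02), then Asf1a (4.06), Hira (3.67), Chaf1a (3.64), Asf1b (3.38), Chaf1b (3.11) and Daxx (3.07). FPKM is per transcript length, so levels of different genes were set side by side. Asf1a, Chaf1a and Hira share 48.0%, 52.5% and 44.7% of exonic bases with an overlapping gene. The part that these bases have in the order was not tested. The 6 genes other than Asf1a were compared within libraries as 15 pairs by an exact two-sided sign-flip test. In 4 pairs the difference had 1 direction in 6 of 6 libraries: Nasp above Hira by 1.36, above Chaf1b by 1.92 and above Daxx by 1.95, and Chaf1a above Daxx by 0.56. Each had p = 0.03125 in the exact test, the smallest that 6 libraries allow, and adjusted p = 0.117 over the 15 pairs. The sizes of the Nasp differences include ICAM-1-/- replicate 2, where Nasp had 158 FPKM, against 15.4 to 29.7 FPKM elsewhere. Asf1b owed its place to the 0 in WT replicate 1. Without that library the means were 4.05 for Asf1b, 3.84 for Chaf1a, 3.77 for Asf1a, 3.73 for Chaf1b and 3.69 for Hira, and 11 of 15 pairs kept their direction. The place of Asf1a averages high ranks in WT with low ones in ICAM-1-/- libraries. No pair passed after adjustment, and over the 6 libraries neighbours in the order from Hira to Daxx differed by less than the SD of their difference.

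Other genes of histone supply and deposition, from lists chosen with earlier results of these data known, gave no call among 36 tested of 37. Of 13 genes that supply H3 and H4 or act with CAF-1, 10 had positive and 3 negative log2 differences (median 0.23). Rbbp7 and Hat1, which form the enzyme that acetylates new H4, had log2 differences of 1.84 ± 1.40 and 1.66 ± 1.28 (SE). Both were listed at 0 in WT replicate 1. Their differences within replicates 2 and 3 were 0.06 and -0.07. Dnajc9, a co-chaperone of H3-H4, had -0.85 ± 0.70.

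Of 7 partners of H3.3 deposition, 4 had positive and 3 negative log2 differences (median 0.19). Atrx, the partner of Daxx, had 7.13, 6.73 and 5.08 FPKM for WT recipients and 10.7, 14.4 and 11.8 FPKM for ICAM-1-/- recipients. Its groups did not overlap, with a log2 difference of 0.87 ± 0.76 (SE), and 1.03 within replicates 2 and 3. Cabin1, a subunit of the HIRA complex, likewise did not overlap (0.94 ± 0.80), by 8.37 against 9.76 FPKM between its nearest libraries, and had 0.29 within replicates 2 and 3. Of all tested genes, 3.23% were higher without overlap. H3f3a, an H3.3 gene, had -0.68 ± 1.18.

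Of 11 tested chaperones and exchangers of H2A-H2B, 8 had positive and 3 negative log2 differences (median 0.18). Anp32e, which removes the variant H2A.Z, had -0.85 ± 0.73 (SE) and did not overlap between groups, by 60.3 against 62.7 FPKM. The nucleoplasmin family genes Npm3 and Npm1 had -0.89 ± 0.79 and 1.69 ± 1.66, the latter with WT replicate 1 listed at 0. Of 5 genes that load the centromeric histone CENP-A, 4 had positive differences (median 1.14), and 3 of the 5 were listed at 0 in WT replicate 1. Within replicates 2 and 3 the median was -0.62, with 4 of 5 negative. Hjurp, the CENP-A chaperone, had -1.05 ± 0.83 over the 6 libraries and -1.03 within replicates 2 and 3. Cenpa itself, listed at 0 in WT replicate 1, had 1.42 ± 1.36 and -0.72.

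S phase genes, given because CAF-1 and Asf1b act with replication, had differences of both signs. Of 24 tested, 11 had positive and 13 negative log2 differences (median -0.03, against 0.08 for all genes), and none had an unadjusted p under 0.05 in limma. Within replicates 2 and 3, 19 of 24 were negative (79.2%, against 67.0% of all tested genes). The share for all tested genes is a low estimate. Genes too low to be fitted within replicates 2 and 3 count there as not negative, and each S phase gene was fitted. The helicase factor Cdc45 had 2.41 ± 1.12 (SE) with WT replicate 1 listed at 0, cyclin E2 (Ccne2) had -2.11 ± 1.03 and the replication factor Gins1 had -1.08 ± 0.78. Set against the mean log2 level of this list in the same library, Asf1a lay at 1.09, -0.55 and 0.13 for WT recipients and at -2.22, -0.80 and -1.37 for ICAM-1-/- recipients. WT replicate 2 and ICAM-1-/- replicate 2 came close on this measure, which again uses the values that chose Asf1a, and 1.77% of tested genes were likewise lower without overlap.

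**Figure D5:**
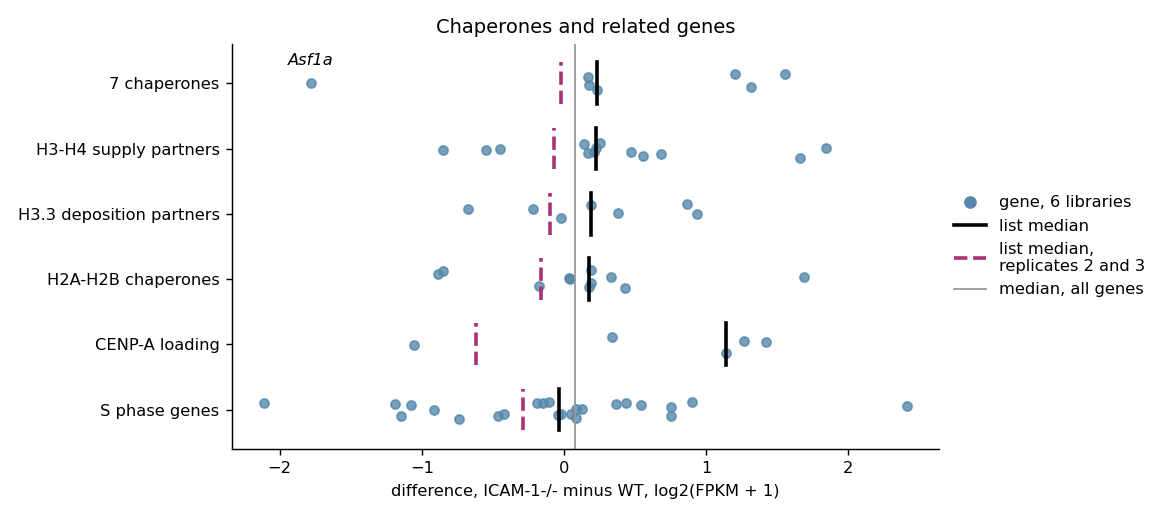
Log2(FPKM + 1) difference of ICAM-1-/- minus WT for the 7 chaperones and for 5 lists of related genes, 1 point per tested gene; black lines are list medians over 6 libraries, dashed lines medians within replicates 2 and 3, and the grey line the median of all tested genes (0.08). Points lie on both sides of 0 in each list, and Asf1a is the lowest of the 7 chaperones.

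The genes whose pattern over the 6 libraries was most like that of Asf1a were found by the root mean square difference between log2(FPKM + 1) profiles, each centred on its mean. Of 10476 genes compared, the 6 nearest were taken after leaving out clone-like names and small RNAs. They were Atg10 (0.27), an autophagy conjugation enzyme gene, Ino80e (0.29), a subunit gene of the INO80 remodeller, and Hic2 (0.31), a transcriptional repressor gene. Next came Ttbk2 (0.32), a kinase gene, Arntl (0.34), which encodes the clock factor BMAL1, and Klhl12 (0.35), a ubiquitin ligase adaptor gene. The median gene lay at 1.39. These genes share the group difference by construction of the measure. Some of them had low levels: Hic2 and Ttbk2 peaked at 4.48 and 5.52 FPKM, both in WT replicate 1. No other chaperone was like Asf1a on this measure: a gene with equal values in all libraries would lie at 1.01, and the other 6 lay between 1.12 (Hira) and 2.32 (Asf1b).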

How the data were processed

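RNA of donor-derived LSK cells was sequenced after Trizol extraction and TruSeq library preparation, per the labels' protocols. The authors deposited 1 FPKM value per gene and library, and the submitters' processing notes list TopHat2 2.0.11 with Cufflinks 2.1.1. The sources used here give no build, annotation or strand setting. Groups and replicate numbers came from sample titles. Genes averaging 1 FPKM or more (10477) were fitted as log2(FPKM + 1) with limma 3.58.1 in R 4.3.3. The model had a group term and a variance trend, and p-values were adjusted by Benjamini-Hochberg at 0.05. The fit was checked on simulated data with less spread within groups than these libraries had. Its ability to find differences at the real spread was therefore not tested. Deviations from group means correlated at 0.35, 0.13 and 0.31 between same-numbered libraries. ICAM-1-/- replicate 3 matched WT replicate 2 as closely (0.31), and ICAM-1-/- replicate 2 matched WT replicate 3 (0.15) slightly better than WT replicate 2. Only the replicate 1 libraries were thus each other's closest match, so pairing by number is uncertain. Such pairing was used for the same-numbered comparisons and the replicate block, while the main model had no pairing term. Members, lists and tests were chosen with earlier results of these data known. Named genes were the members, up to 3 per list of smallest p, and the 6 nearest to Asf1a, without clone-like names or small RNAs. A gene that the rule names is not reported here. Rbbp4, Mcm9, Ubxn6 and the markers were named after their values were seen. Exon overlaps came from GENCODE M21 on GRCm38 and promoters from RefSeq (7 of 7 matched). Older symbols in the table were matched for 3 list genes through RefSeq synonyms.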

Additional observations from a re-analysis of the deposited data

How the results depend on the processing

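No member was called by limma under any of 16 alternatives, the smallest adjusted p being 0.919. The log2 difference of Asf1a stayed below 0 under all 16, from -2.10 without ICAM-1-/- replicate 3 to -1.19 with library weights, and those of Asf1b and Nasp stayed above 0. Chaf1a, Chaf1b, Hira and Daxx took both signs. Chaf1b, besides the values given above, had -0.05 with values under 0.001 FPKM as missing, and Hira had -0.02 without ICAM-1-/- replicate 1. Of all tested genes, limma called 0 higher and 0 lower over the 6 libraries. It called 11 higher and 2 lower with the replicate block, 3 higher and 1 lower with library weights, and 10 higher and 8 lower within replicates 2 and 3. Leaving out 1 library gave 0 to 2 higher and 0 to 1 lower, with 1 higher without WT replicate 1, 2 higher without ICAM-1-/- replicate 1 and 1 lower without ICAM-1-/- replicate 3. The cause of these shifts was not tested. The replicate block gave no member a call. The ordering of members gave 0 pairs past the threshold under each of its 9 alternatives, where 5 libraries cannot go below an exact p of 0.0625 and 4 not below 0.125. Depth is unknown, so values near 0 have no stated floor.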

Other observations

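Among the 21 pairs of the 7 chaperones, Chaf1a and Daxx had the most similar profiles over the 6 libraries, with a root mean square difference of 0.30 between centred log2(FPKM + 1) profiles. Of 10476 genes, 0.94% lay nearer to Chaf1a than Daxx did, and 1.63% lay nearer to Daxx than Chaf1a did. Both genes were highest in ICAM-1-/- replicate 1 and lowest in ICAM-1-/- replicate 2, so the similarity spans a replication-coupled and a replication-independent chaperone. Asf1b and Chaf1b were the next pair (0.48), with 1.78% of genes nearer to Asf1b and 3.8% nearer to Chaf1b. Asf1b and Chaf1b share the value of 0 in WT replicate 1. The pairs were chosen after their values were seen, and libraries of uneven quality enter every profile.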
